A study of Mus musculus with 12 samples.

Results

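Fos, Fosb, Fosl2, Jun, Junb, Jund, Atf3, Egr1, Egr2 and Maff, 10 genes for transcription factors of the immediate early class, were selected by symbol from the 25230 genes of the deposited expression table. The 12 libraries held polyadenylated RNA of mouse macrophages differentiated from bone marrow over 8 days in the growth factor M-CSF at 50 ng per ml. The groups were Piezo1 knockout cells given Candida albicans, a commensal yeast that can also form hyphae, Piezo1 knockout cells given PBS, wild-type cells given C. albicans and wild-type cells given PBS, with 3 libraries each. Knockout PBS libraries carry DMSO in their titles and PBS in their treatment labels, so in comparisons that use these libraries a difference of vehicle cannot be told apart from the one named. The labels give the genotype as Piezo1 KO, with no promoter, Cre or clone, no dose or duration of the fungus, and no statement that the libraries of a group came from separate animals or cultures, so p-values measure the spread between these libraries only.

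Immediate early genes are transcribed within minutes of a stimulus from factors already present in the cell, and their messages are short-lived. Fos and Jun family proteins bind each other through leucine zippers and act as the dimer AP-1. Fos family proteins need a Jun partner to bind DNA, whereas Jun proteins can also pair among themselves. Egr1 and Egr2 are zinc finger proteins that bind GC-rich sites. Atf3 is a zipper protein of the ATF/CREB family that restrains many inflammatory genes in macrophages, and Maff is a small Maf protein, which carries a zipper but no activation domain. In macrophages these genes are induced through pattern recognition receptors and MAP kinases.

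Short stretches of the promoters show which known elements of immediate early genes lie near the starts of members, both those that rose with the fungus and Atf3, whose response was not called. Windows of 250 bases before to 50 bases after each RefSeq start (GRCm38.p6) were searched for 9 of the 10 genes (all but Egr1), in 15 windows of 32851 in all, and each stretch holds 10 flanking bases on both sides of the match, in the direction of the gene. The letters TGACG are the core of the cAMP response element bound by CREB and ATF proteins. They were found on either strand in 6 of the 9 genes and in 9 of the 15 windows (20.8% of all windows). Capitals mark the core at chr12:85473814-85473838 (+), starting 66 bases before the start of Fos, at chr8:84978840-84978864 (-), 106 bases before Junb, and at chr1:191183326-191183350 (-), 7 bases before Atf3, where it lies on the other strand and reads CGTCA. The complete element TGACGTCA contains this core on both strands. It was found in 1 gene and 1 of the 15 windows (1.79% of all windows), at chr15:79347481-79347508 (+), 29 bases before a start of Maff.
Fos: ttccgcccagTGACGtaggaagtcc
Junb: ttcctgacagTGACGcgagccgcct
Atf3: aatagcattaCGTCAgcctgggatt
Maff: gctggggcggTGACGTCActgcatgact

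The CArG box, bound by serum response factor, was found in 1 of the 9 genes, Egr2, in 4 of the 15 windows (1.63% of all windows). Some of these Egr2 windows overlap and share a match. Capitals mark the box at chr10:67537484-67537513 (+) and at chr10:67537787-67537816 (+), each 72 bases before one of the RefSeq starts of Egr2. The Egr site GCGGGGGCG or GCGTGGGCG was found in Fosl2, Fosb and Maff, in 3 of the 15 windows (3.47% of all windows). Capitals mark it at chr7:19310077-19310105 (-), 50 bases before Fosb, and at chr15:79347422-79347450 (+), 88 bases before Maff. The NF-kB site, searched by its usual consensus, was found in 4 genes, Fos, Fosb, Fosl2 and Egr2, in 4 of the 15 windows (5.8% of all windows). The AP-1 site TGACTCA was found in 0 of the 9 genes and 0 of the 15 windows (5.2% of all windows). Both strands were searched throughout, and each of these matches describes letters in a window, not occupancy by a factor. Sites farther from a start, sites that differ from the searched letters and the promoter of Egr1 were not covered. A missing match therefore does not show that a gene lacks the element.
Egr2 first CArG box: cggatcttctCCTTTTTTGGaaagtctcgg
Egr2 second CArG box: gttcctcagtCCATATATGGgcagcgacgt
Fosb Egr site: tgacgcaagcGCGGGGGCGggtcccggag
Maff Egr site: cctcactcggGCGTGGGCGgggtctcggc

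Reads in genes, recovered from the deposited values, were 16400119 to 25741091 per library. Piezo1 averaged 64.9 ± 0.76 TPM in knockout C. albicans and 65.4 ± 2.72 in knockout PBS libraries, against 137 ± 8.68 in wild-type C. albicans and 135 ± 4.69 in wild-type PBS (SD, n = 3 each), so its message was reduced and not lost. TPM is a length-corrected relative abundance within a library. All 9 macrophage markers examined were present, with group means for Adgre1 of 924 to 1181 TPM. Their sum was 15940 to 16500 TPM in knockout libraries and 22290 to 26860 TPM in wild-type libraries, and its largest part, Lyz2, averaged 9432 TPM in knockout and 16260 TPM in wild-type libraries with C. albicans, and 9099 TPM in knockout and 19700 TPM in wild-type libraries with PBS. Cd68 differed the other way, with 3025 against 2634 TPM with C. albicans and 3079 against 2486 TPM with PBS (knockout against wild type). The part of these differences in the members' results was not tested. Neutrophil markers summed to 2.11 to 8.07 TPM and lymphocyte markers to at most 3.18 TPM in any library, and the endothelial list to 29.1 to 46.9 TPM. Most of that last sum was Kdr (27.5 to 38.5 TPM in group means), with Cdh5 at most 1.66 TPM and Pecam1 at most 2.11 TPM. Among wild-type C. albicans libraries, replicate 1 differed from replicates 2 and 3, with chi-square per degree of freedom over gene counts of 16.2 and 15.3, where the other replicate pairs ranged from 1.49 to 4.6. Values without it are given beside each member's result that it changed.

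All 10 members passed the filter for testing (at least 1 TPM in at least 3 libraries), as did 11283 genes in all. Differences were fitted with limma on log2(TPM + 1) over the 12 libraries, adjusted by Benjamini-Hochberg over all tested genes, and called at an adjusted p under 0.05. Fold changes on this scale understate the change of low genes, which here applies to Fosb and Egr1. A bulk library cannot tell a change in every cell from a change in the share of cells that carry a message.

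With C. albicans against PBS, 6 of the 10 members rose and 0 fell in the knockout, where 3.94% of all tested genes were called higher and 3.14% lower. The median log2 fold change of the members was 0.64, beside -0.04 over all tested genes. In wild type 8 rose and 1 fell, where 16.1% of all genes were called higher and 28.3% lower, and the median of the members was 1.38 beside -0.07. Fos, Jun, Junb, Egr1, Egr2 and Maff rose in both genotypes, Fosb and Fosl2 were called in wild type, and Jund fell in wild type. Each of these responses is set against the PBS libraries of its own genotype.

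Between genotypes with C. albicans, 1 member was higher and 7 were lower in the knockout, where 12.4% of all genes were called higher and 27.5% lower. The median of the members was -0.38 beside -0.05 over all genes. With PBS 4 were higher and 2 lower in the knockout, against 6.14% and 26.1% of all genes, with medians of 0.12 and -0.08. The PBS count of 6 was 3 when any 1 of the knockout C. albicans libraries, knockout PBS replicate 1 or 3, or wild-type PBS replicate 1 or 2 was left out, and 7 when replicate 1 of the wild-type C. albicans group was left out. Calls over all genes moved the same way. In the runs that gave 3, 511 to 646 genes were higher and 2236 to 2796 lower, in place of 693 and 2948. In the run that gave 7, 865 genes were higher and 3360 lower. The interaction, the knockout response less the wild-type one, was negative for 4 members (Fos, Junb, Egr2 and Maff) and positive for 0, where 7.52% of all genes had a positive and 6.33% a negative one. The members' median interaction was -0.56, beside 0.02 over all tested genes. Without wild-type C. albicans replicate 1 the interaction was called in 8 members, the added ones being Fosb, Egr1 and Atf3 (negative) and Jun (positive). In that run 13.0% of all genes had a positive and 9.39% a negative interaction called, so calls were more frequent over all genes too.

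The split of calls over all genes depended on the scaling between libraries, whereas the members' counts moved little. With median-ratio factors in place of plain TPM, 1606 genes were higher and 1595 lower in the knockout with PBS, in place of 693 and 2948. With C. albicans the split between genotypes was 2172 and 2455 in place of 1402 and 3101. The response split was 611 higher and 172 lower in place of 445 and 354 in the knockout, and 2576 and 2066 in place of 1814 and 3192 in wild type. The interaction was positive for 663 genes and negative for 946, in place of 849 and 714. For the members the same scaling gave 6 higher in the knockout response, 8 higher in the wild-type response, 1 higher and 7 lower between genotypes with C. albicans, 5 higher and 1 lower with PBS, and 4 negative interactions. Like counts do not mean that the same members were called. With this scaling the fall of Jund in wild type and the lower Atf3 with PBS were not called.

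**Figure D1:**
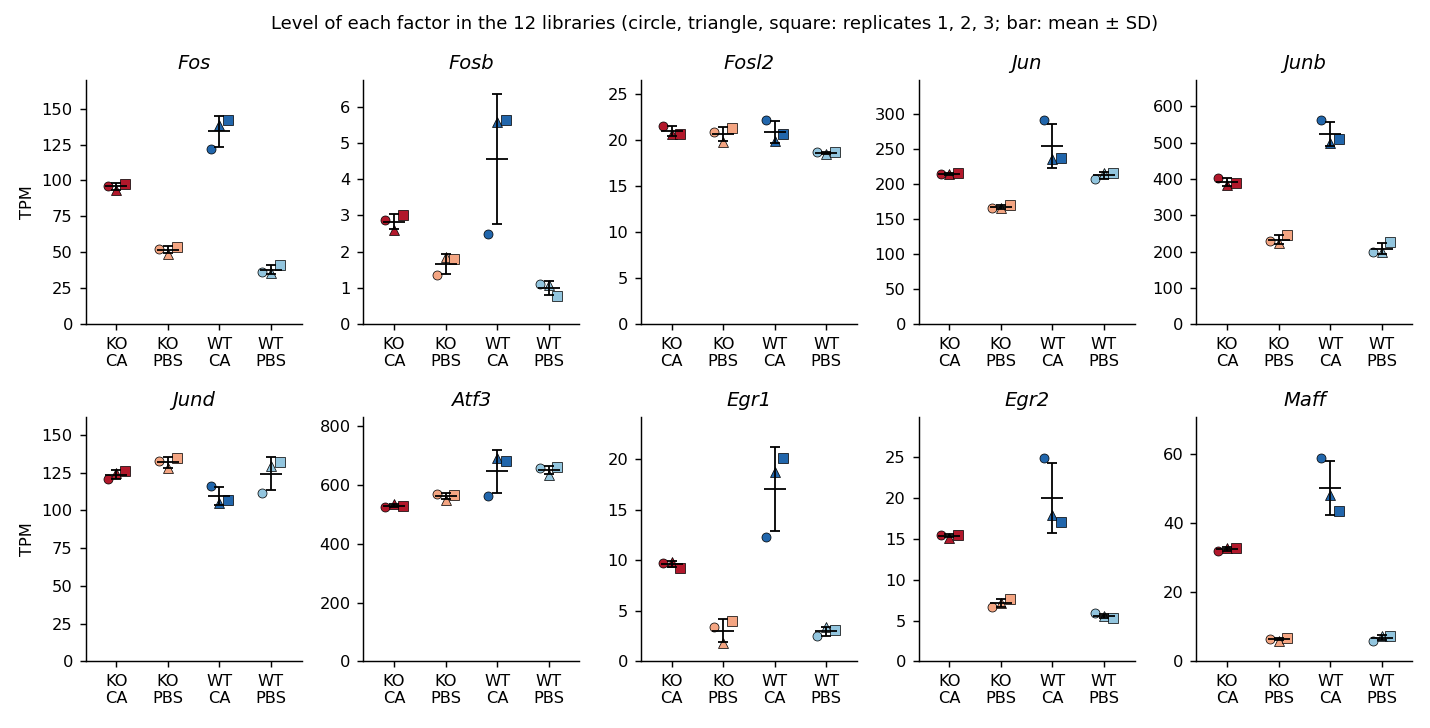
Level of each of the 10 factors in TPM (1 panel per gene, axes from 0) by group, with circles, triangles and squares for replicates 1, 2 and 3 and bars for mean ± SD; KO is the knockout, WT wild type and CA C. albicans. Fos spans 93.3 to 97.8 TPM in knockout and 122 to 142 TPM in wild-type C. albicans libraries, while Atf3 lies between 524 and 692 TPM in all 12.

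The levels ranged from 0.788 TPM (Fosb) to 692 TPM (Atf3) over members and libraries, in an order that changed with treatment. With C. albicans in the knockout the order was Atf3 (529 TPM on average), Junb (392), Jun (214), Jund (124), Fos (95.8), Maff (32.5), Fosl2 (21.0), Egr2 (15.4), Egr1 (9.63) and Fosb (2.83), and no neighbours in this order overlapped in their libraries. In wild type with C. albicans Fos, at 122 to 142 TPM, stood above Jund, at 105 to 116 TPM. There the libraries of Fosl2 (19.9 to 22.1 TPM), Egr2 (17.0 to 24.9) and Egr1 (12.3 to 20.1) overlapped, so these 3 had no clear order. With PBS Egr2 and Maff overlapped in the knockout, at 6.62 to 7.59 and 6.03 to 6.73 TPM, as did Egr1 and Fosb, at 1.78 to 3.98 and 1.35 to 1.85 TPM. In wild type with PBS it was Jun and Junb that overlapped, at 206 to 215 and 200 to 225 TPM.

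Fos, the principal partner of Jun proteins in AP-1 after stimulation, is encoded on chromosome 12 (GRCm38, 85473890 to 85477274, plus strand, 4 exons). Its levels were 96.4, 93.3 and 97.8 TPM in knockout C. albicans libraries and 52.2, 49.0 and 54.0 TPM in knockout PBS libraries. They were 122, 139 and 142 TPM in wild-type C. albicans and 36.5, 35.8 and 41.4 TPM in wild-type PBS libraries. No pair of groups overlapped, and the knockout lay between the wild-type groups under both treatments. Fos rose in the knockout by a log2 fold change of 0.88 (SE 0.07, limma adjusted p = 1.71e-06) and in wild type by 1.80 (SE 0.07, adjusted p = 3.21e-10). In mean TPM the increments were 44.1 in the knockout and 96.3 in wild type.

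The genotypes differed in Fos in opposite directions under the 2 treatments. With C. albicans Fos was lower in the knockout by a log2 difference of -0.48 (SE 0.07, limma adjusted p = 9.85e-05), and with PBS it was higher by 0.44 (SE 0.07, adjusted p = 0.00032). The interaction was -0.92 (SE 0.09, adjusted p = 4.84e-05), and both the higher PBS level and the lower C. albicans level of the knockout enter it. All 5 calls for Fos held in every alternative run, including without wild-type C. albicans replicate 1, where the interaction was -0.99 (adjusted p = 3.68e-06). The PBS difference, the knockout response and the interaction use the libraries with DMSO in their titles.

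Fosb, a close relative of Fos, was the least abundant member (chromosome 7, 19302696 to 19310118, minus strand). It had 2.88, 2.60 and 3.02 TPM in knockout C. albicans, 1.35, 1.85 and 1.79 in knockout PBS, 2.49, 5.58 and 5.63 in wild-type C. albicans and 1.12, 1.09 and 0.788 in wild-type PBS libraries. These values rest on 41 to 345 reads per library. Wild-type C. albicans replicate 1 lay below both other libraries of its group and below every knockout C. albicans library, whereas replicates 2 and 3 lay above them. Fosb rose in wild type by 1.42 (SE 0.21, limma adjusted p = 0.000146). Its response in the knockout was 0.53 (adjusted p = 0.144), and the interaction was -0.89 with a 95% interval of -1.53 to -0.26 (adjusted p = 0.0617). Without that replicate the interaction was -1.20 (adjusted p = 4.31e-04) and the difference between knockout and wild type with C. albicans was -0.79 (4.91e-04) in place of -0.48 (0.0848). The knockout response (adjusted p = 0.0122) and the PBS difference (adjusted p = 0.0163) were then called as well.

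Fosl2, which encodes Fra-2, was nearly level (chromosome 5, 32136472 to 32157840, plus strand). It had 21.6, 20.6 and 20.7 TPM in knockout C. albicans and 20.9, 19.8 and 21.3 TPM in knockout PBS libraries. Wild-type libraries had 22.1, 19.9 and 20.7 TPM with C. albicans and 18.7, 18.5 and 18.7 TPM with PBS. Only the wild-type PBS libraries lay below all others. Fosl2 rose in wild type by 0.16 (SE 0.05, limma adjusted p = 0.0249), and this call was lost without wild-type C. albicans replicate 1 (0.12, adjusted p = 0.0754) and also without its replicate 3 or either of wild-type PBS replicates 1 and 2. In the knockout the response was 0.02, with a 95% interval of -0.09 to 0.13 (adjusted p = 0.862). With C. albicans the genotypes differed by 0.01 (adjusted p = 0.941), and by 0.25 (adjusted p = 0.00123) after a trend with gene length was removed; Fosl2 has the longest transcript of the members (6537 bases). With PBS Fosl2 was higher in the knockout by 0.14 (adjusted p = 0.0494), a call that held on leaving out 3 of the 12 libraries in turn (adjusted p 0.0255 to 0.151), those 3 being wild-type C. albicans replicates 1 and 2 and knockout PBS replicate 2. Over all alternative runs the limma adjusted p of this difference ranged from 1.17e-04 to 0.151.

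Jun, the founding Jun protein and a strong activator, is a gene of 1 exon on chromosome 4 (95049036 to 95052222, minus strand). It had 213, 213 and 216 TPM in knockout C. albicans and 165, 166 and 169 TPM in knockout PBS libraries, against 290, 235 and 236 TPM in wild-type C. albicans and 206, 215 and 215 TPM in wild-type PBS. The knockout lay below wild type under both treatments with no overlap, and knockout C. albicans libraries reached only the level of wild-type PBS libraries. Jun rose by 0.36 in the knockout (SE 0.06, limma adjusted p = 0.00348) and by 0.25 in wild type (SE 0.06, adjusted p = 0.00611). The difference between knockout and wild type was -0.24 with C. albicans (adjusted p = 0.0092) and -0.35 with PBS (adjusted p = 0.0012).

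The interaction of Jun was 0.11 with a 95% interval of -0.08 to 0.30 (limma adjusted p = 0.461), so responses of equal size lie inside the interval. Without wild-type C. albicans replicate 1, whose Jun was the highest of all libraries, it was 0.21 (adjusted p = 0.0017). The wild-type response was then 0.15 and the difference between genotypes with C. albicans -0.14, both still called (adjusted p = 8.42e-04 and 0.00194). The gene shares 232 exonic bases with the antisense gene Junos. No source used here gives the strand setting of the counting, so reads of Jun and Junos cannot be separated.

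Junb, a Jun family protein that can activate or restrain AP-1 targets, was the most abundant of the family after the fungus (chromosome 8, 84976909 to 84978748, minus strand, 1 exon). It had 403, 382 and 390 TPM in knockout C. albicans and 230, 223 and 246 TPM in knockout PBS libraries. Wild-type libraries had 561, 499 and 511 TPM with C. albicans and 200, 200 and 225 TPM with PBS. With C. albicans the genotypes did not overlap, and with PBS 1 wild-type library reached into the knockout range. Junb rose in the knockout by 0.75 (SE 0.06, limma adjusted p = 1.73e-06) and in wild type by 1.33 (SE 0.06, adjusted p = 1.47e-09). With C. albicans it was lower in the knockout by a difference of -0.42 (adjusted p = 8.75e-05), and the interaction was -0.58 (SE 0.08, adjusted p = 0.000486).

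With PBS Junb was higher in the knockout by 0.16 (limma adjusted p = 0.0425), which held on leaving out 5 of the 12 libraries in turn (adjusted p 0.00873 to 0.161). The libraries whose omission ended that call were all 3 of knockout C. albicans, knockout PBS replicates 1 and 3, and wild-type PBS replicates 1 and 2. Junb shares 173 exonic bases on the opposite strand with Prdx2, so its reads are uncertain to that extent.

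Jund, the Jun protein kept at a steady level in many cells, did not share the rise (chromosome 8, 70697739 to 70700616, plus strand, 1 exon). It had 121, 125 and 126 TPM in knockout C. albicans, 133, 128 and 135 in knockout PBS, 116, 105 and 107 in wild-type C. albicans and 112, 129 and 132 in wild-type PBS libraries. Wild-type PBS replicate 1 lay within the range of the wild-type C. albicans libraries. Jund fell in wild type with a log2 fold change of -0.18 (SE 0.06, limma adjusted p = 0.0245), a call lost with median-ratio scaling (-0.10, adjusted p = 0.17) and without any of wild-type replicates 2 and 3 of either treatment (adjusted p up to 0.102). With C. albicans it was higher in the knockout by 0.18 (adjusted p = 0.0299), and that call was lost without replicate 2 or 3 of knockout or of wild-type C. albicans (adjusted p up to 0.107). It was also lost after a trend with gene length was removed (0.10, adjusted p = 0.164). The antisense gene Gm11175 shares 877 exonic bases with Jund, which makes its reads the least certain of the Jun family.

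**Figure D2:**
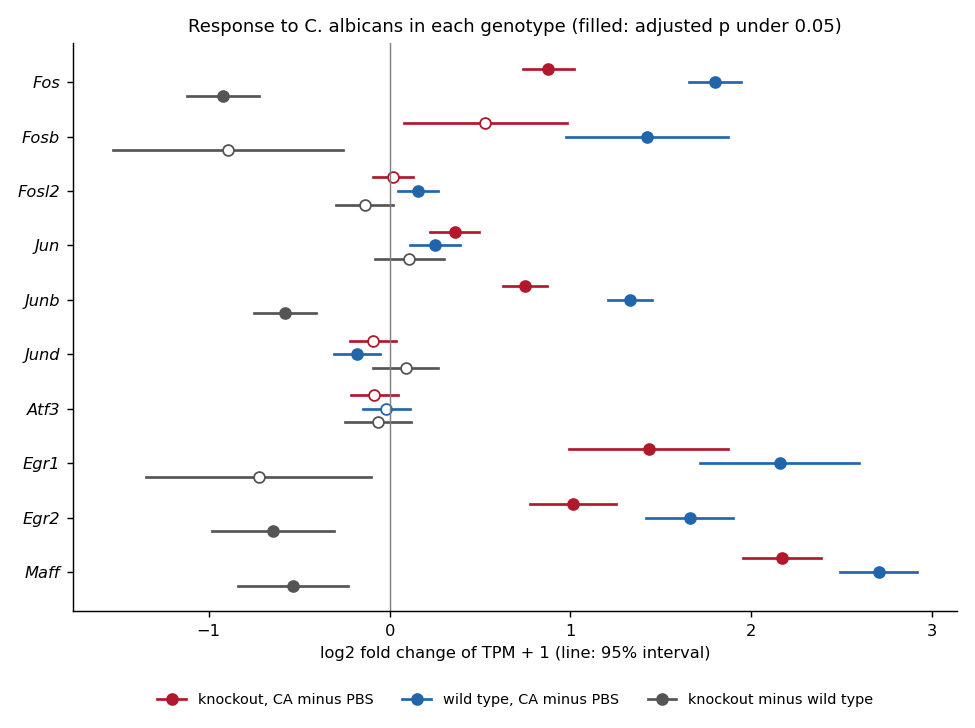
Log2 fold change of TPM + 1 with C. albicans over PBS for each factor in the knockout and in wild type, and the difference between these responses in grey, with 95% intervals and filled points for adjusted p under 0.05. Fos has 0.88 in the knockout and 1.80 in wild type, Junb 0.75 and 1.33, and Jun 0.36 and 0.25.

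The makeup of the Jun family message pool differed between treatments in both genotypes by more than the spread between libraries, a description without a test. The TPM of Jun, Junb and Jund summed to 730 ± 8.37 in knockout C. albicans, 531 ± 17.2 in knockout PBS, 887 ± 70.4 in wild-type C. albicans and 545 ± 27.4 in wild-type PBS libraries (SD, n = 3 each). Junb made up 53.7% ± 0.87 of that sum in knockout C. albicans and 43.8% ± 0.82 in knockout PBS libraries, against 59.1% ± 0.97 in wild-type C. albicans and 38.2% ± 1.36 in wild-type PBS. Jun made up 29.4%, 31.4%, 28.6% and 39.0% of it in the same 4 groups. With PBS the genotypes overlapped in the size of the pool, while the share of Jun was lower and that of Junb higher in every knockout library.

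The Fos family pool, summed here over Fos, Fosb and Fosl2 without Fosl1, was several times smaller in every group. Its sum was 120 ± 2.73 TPM in knockout C. albicans, 74.1 ± 3.23 in knockout PBS, 160 ± 11.4 in wild-type C. albicans and 57.5 ± 2.98 in wild-type PBS libraries (SD, n = 3 each). Fos itself made up 80.1% ± 0.38, 69.8% ± 0.43, 84.0% ± 0.71 and 65.8% ± 1.90 of it in the same order. Fosl2 took most of the rest, with 13.2% in wild-type C. albicans and 32.4% in wild-type PBS libraries as its extremes. These are messages, and the sums say nothing of how much protein or which dimers the cells held.

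**Figure D3:**
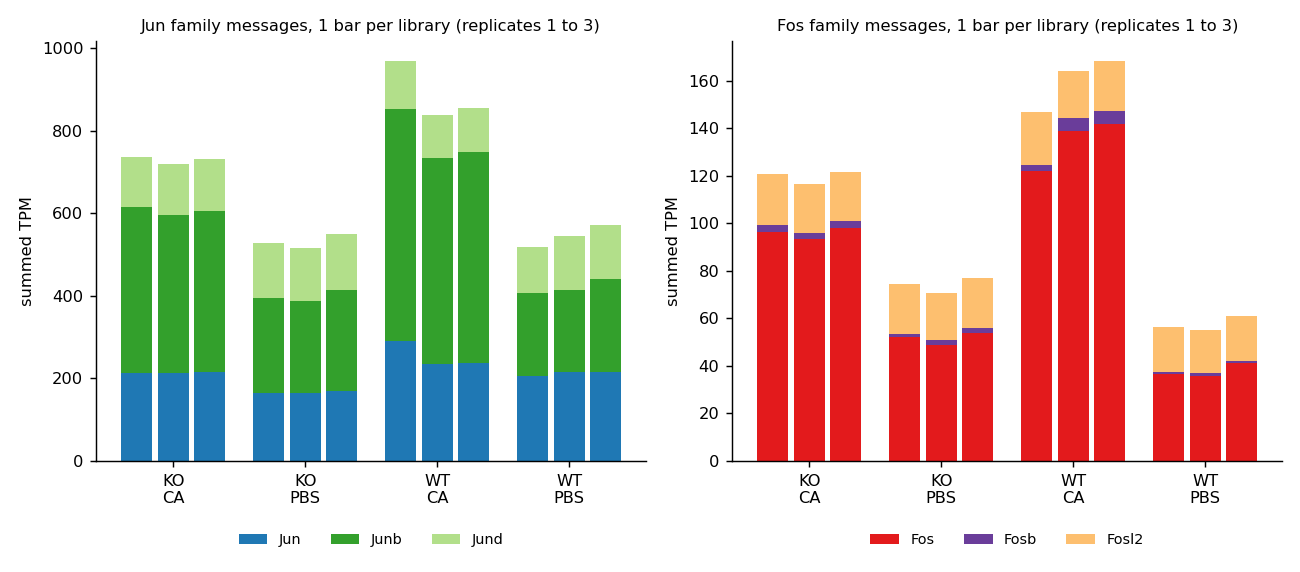
Summed TPM of the Jun family (Jun, Junb, Jund) and of the Fos family (Fos, Fosb, Fosl2) as 1 stacked bar per library, grouped by genotype (KO knockout, WT wild type) and treatment (CA is C. albicans). On average the Jun family sums to 730 TPM in knockout C. albicans and 887 TPM in wild-type C. albicans libraries, and Junb is the largest part in both.

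Atf3 was the most abundant member, yet its response to C. albicans was not called in either genotype (chromosome 1, 191170296 to 191183333, minus strand). It had 524, 535 and 529 TPM in knockout C. albicans and 570, 550 and 565 TPM in knockout PBS libraries. Wild-type libraries had 563, 692 and 682 TPM with C. albicans and 658, 635 and 661 TPM with PBS. Of the wild-type C. albicans libraries, replicate 1 lay below the PBS ones and replicates 2 and 3 above them. The response was -0.09 in the knockout (95% interval -0.21 to 0.04, limma adjusted p = 0.427) and -0.02 in wild type (95% interval -0.15 to 0.11, adjusted p = 0.818; 0.06 with median-ratio scaling). Without that replicate the wild-type response was 0.08 (adjusted p = 0.026), the knockout response was called at the same -0.09 (adjusted p = 0.0295) and the interaction was -0.16 (adjusted p = 0.00471) in place of -0.07 (0.66).

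Between genotypes Atf3 was lower in the knockout under both treatments, by -0.28 with C. albicans (SE 0.06, limma adjusted p = 0.00241) and by -0.21 with PBS (SE 0.06, adjusted p = 0.0155). With median-ratio scaling the PBS difference was -0.12 (adjusted p = 0.23), and it was also lost without knockout PBS replicate 2 (adjusted p = 0.0568). With PBS all 3 knockout libraries lay below all 3 wild-type ones. The same was true with C. albicans, where the nearest libraries were 535 TPM in the knockout and 563 TPM in wild type.

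Egr1, a zinc finger activator that macrophages induce on differentiation and stimulation, was low and rose in both genotypes (chromosome 18, 34861207 to 34864956, plus strand, 2 exons). It had 9.78, 9.86 and 9.25 TPM in knockout C. albicans, 3.41, 1.78 and 3.98 in knockout PBS, 12.3, 18.8 and 20.1 in wild-type C. albicans and 2.49, 3.36 and 3.12 in wild-type PBS libraries. The knockout lay below wild type with C. albicans in every library, while with PBS the genotypes overlapped. Egr1 rose by 1.43 in the knockout (SE 0.20, limma adjusted p = 0.000629) and by 2.16 in wild type (SE 0.20, adjusted p = 3.66e-06). With C. albicans it was lower in the knockout by a log2 difference of -0.74 (SE 0.20, adjusted p = 0.0114).

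With PBS the Egr1 difference was -0.01 (95% interval -0.45 to 0.43, limma adjusted p = 0.97). The interaction was -0.72 with a 95% interval of -1.35 to -0.10 and an adjusted p of 0.116, so it was not called. It was called without knockout PBS replicate 2, the lowest of all libraries (-0.98, adjusted p = 0.019), without wild-type C. albicans replicate 1 (-0.93, adjusted p = 0.0213), and with a pseudocount of 5 TPM (-0.58, adjusted p = 0.0483).

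Egr2, a relative of Egr1 that bears the CArG boxes shown above, rose in both genotypes (chromosome 10, 67534469 to 67542188, plus strand). It had 15.5, 15.2 and 15.4 TPM in knockout C. albicans and 6.62, 7.15 and 7.59 TPM in knockout PBS libraries. Wild-type libraries had 24.9, 18.0 and 17.0 TPM with C. albicans and 5.89, 5.51 and 5.29 TPM with PBS. As for Fos, the 4 groups did not overlap and the knockout lay between the wild-type groups. Egr2 rose by 1.01 in the knockout (SE 0.11, limma adjusted p = 5.93e-05) and by 1.66 in wild type (SE 0.11, adjusted p = 1.38e-07). The interaction was -0.65 (SE 0.16, adjusted p = 0.0162), and -0.48 (adjusted p = 0.00289) without wild-type C. albicans replicate 1, which had the highest Egr2 of all libraries.

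The differences between genotypes that make up the Egr2 interaction were less firm. With C. albicans the difference was -0.34 (SE 0.11, limma adjusted p = 0.0265), and without wild-type C. albicans replicate 1 it was -0.18 (adjusted p = 0.0622). It was also lost without any one of the knockout C. albicans libraries (adjusted p up to 0.0684). With PBS it was 0.31 (adjusted p = 0.0495), which held only without wild-type C. albicans replicate 1 or 3 when libraries were left out in turn (adjusted p 0.0023 to 0.145).

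Maff, which pairs with itself or with larger zipper proteins such as Nrf2, had the largest response of the members in both genotypes (chromosome 15, 79346621 to 79359078, plus strand). It had 31.9, 32.9 and 32.9 TPM in knockout C. albicans and 6.64, 6.03 and 6.73 TPM in knockout PBS libraries. Wild-type libraries had 59.0, 48.1 and 43.7 TPM with C. albicans and 5.94, 7.27 and 7.30 TPM with PBS. With C. albicans every knockout library lay below every wild-type one, and with PBS the genotypes overlapped. Maff rose by 2.17 in the knockout (SE 0.10, limma adjusted p = 1.16e-08) and by 2.70 in wild type (SE 0.10, adjusted p = 3.21e-10).

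With C. albicans Maff was lower in the knockout by a difference of -0.60 (SE 0.10, limma adjusted p = 0.000389), and with PBS the difference was -0.07 (95% interval -0.28 to 0.15, adjusted p = 0.653). The interaction was -0.53 (SE 0.14, adjusted p = 0.024). That call was lost without knockout C. albicans replicate 1 and without knockout PBS replicate 1 or 3 (adjusted p up to 0.058), and it held without wild-type C. albicans replicate 1 (-0.42, adjusted p = 0.0177).

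**Figure D4:**
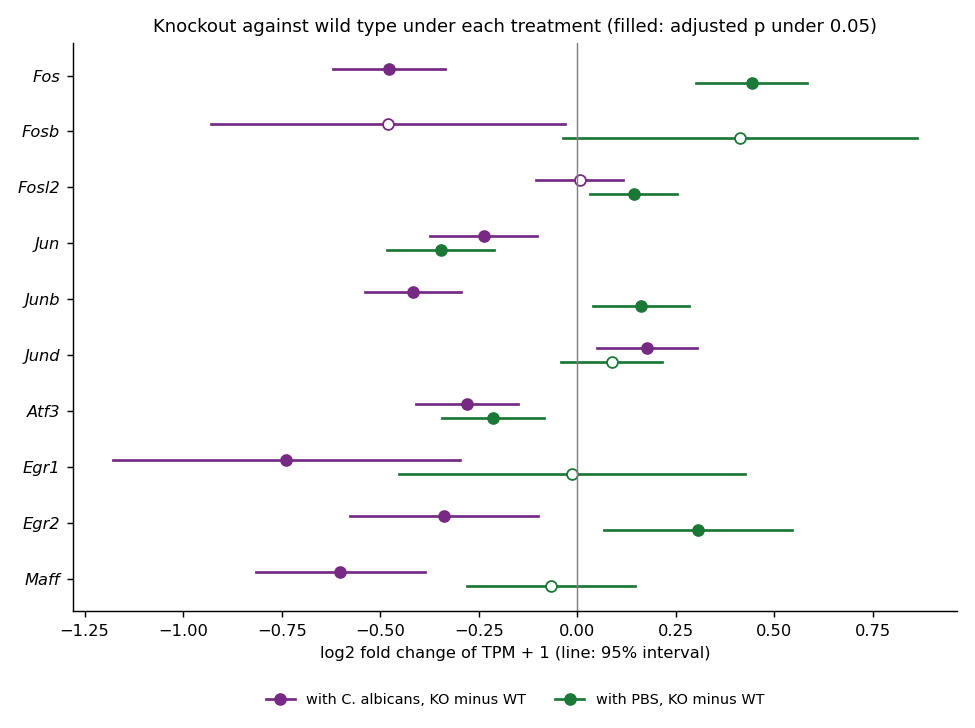
Log2 difference of TPM + 1 between knockout and wild type for each factor with C. albicans and with PBS, with 95% intervals and filled points for adjusted p under 0.05. Fos stands at -0.48 with C. albicans and 0.44 with PBS, whereas Jun stands at -0.24 and -0.35.

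Side by side, the members fell into different shapes of difference between the genotypes. Fos was lower in the knockout with C. albicans and higher with PBS. Junb and Egr2 had the same signs, with weaker calls for both with PBS and for Egr2 also with C. albicans. Fosb had these signs too, at -0.48 with C. albicans and 0.41 with PBS. Neither Fosb difference was called with all libraries, and both were called without wild-type C. albicans replicate 1. Maff and Egr1 were lower with C. albicans, with PBS differences of -0.07 and -0.01 that were 0.02 and 0.06 with median-ratio scaling. Jun and Atf3 were lower under both treatments, and their interactions of 0.11 and -0.07 were not called. For Jund the differences were 0.18 with C. albicans and 0.09 with PBS, and for Fosl2 0.01 and 0.14, of which the Jund one with PBS and the Fosl2 one with C. albicans were not called.

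In the authors' deposited table, which by its values compares C. albicans with PBS in wild type, the log2 fold changes had the sign of those above for all members but Atf3. In the authors' deposited table they were 1.91 for Fos, 1.41 for Junb, 0.34 for Jun, 2.60 for Egr1, 1.92 for Egr2 and 2.95 for Maff. The authors' deposited table gave 2.29 for the low Fosb, where the log2(TPM + 1) scale gave 1.42. For Fosl2 the authors' deposited table gave 0.24 (adjusted p = 4.72e-04), against 0.16 (adjusted p = 0.0249, limma) on the log2(TPM + 1) scale. For Jund and Atf3 the authors' deposited table gave -0.11 (adjusted p = 0.143) and 0.07 (adjusted p = 0.412). Jund was thus called lower by limma on the log2(TPM + 1) scale (-0.18, adjusted p = 0.0245) and not in the authors' deposited table. Scaling between libraries differed as well. The authors' values matched reads scaled by a factor per library, whereas limma here used plain TPM. With median-ratio factors in limma the Jund call was lost and the Atf3 response was 0.06. The part of the scaling in these differences was not tested.

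Genes outside the 10 whose pattern over the 12 libraries lay nearest were ranked by the root mean square difference of centred log2(TPM + 1) among 9191 candidates. For Fos these were Plaur, the urokinase receptor, at 0.103 and Dusp1, a phosphatase of MAP kinases, at 0.144, where Fos itself varied by 0.711 about its own mean. Maff, which varied by 1.24, lay nearest to Nfkbie at 0.136 and Nfkbia at 0.146, both inhibitors of NF-kB. Junb, which varied by 0.546, lay nearest to Zswim4 (0.070) and Rab20 (0.095). Egr2 (0.698) lay nearest to Ccrl2 (0.132) and Bcl3 (0.141), Egr1 (0.966) to the chemokine gene Ccl3 (0.225) and Icosl (0.234), and Fosb (0.586) to Carmil1 (0.192) and Ccl9 (0.194). Jun varied by 0.225 and lay nearest to Snx18 (0.065). Atf3, Jund and Fosl2 varied by only 0.146, 0.117 and 0.078, and their nearest genes were S1pr2, Sys1 and Cry1 at 0.050, 0.035 and 0.040.

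Among 33 tested genes of a list of other immediate early genes, 26 rose and 1 fell in the knockout, and 29 rose and 1 fell in wild type, with medians of 0.57 and 1.00. The share that rose was 78.8% in the knockout (3.94% of all tested genes) and 87.9% in wild type (16.1%). With C. albicans 3 of them were higher (9.09%, beside 12.4% of all genes) and 21 lower (63.6%, beside 27.5%) in the knockout. With PBS 15 were higher (45.5%, beside 6.14%) and 3 lower (9.09%, beside 26.1%). The interaction was positive for 0 (beside 7.52% of all genes) and negative for 20 (60.6%, beside 6.33%), with a median of -0.53. Dusp1 averaged 295 ± 0.88 TPM in knockout C. albicans and 162 ± 5.39 in knockout PBS, against 445 ± 27.0 in wild-type C. albicans and 144 ± 7.30 in wild-type PBS libraries (SD, n = 3 each). Its interaction was -0.76 (limma adjusted p = 1.64e-05), and that of Ier3 was -0.99 (adjusted p = 2.61e-05).

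**Figure D5:**
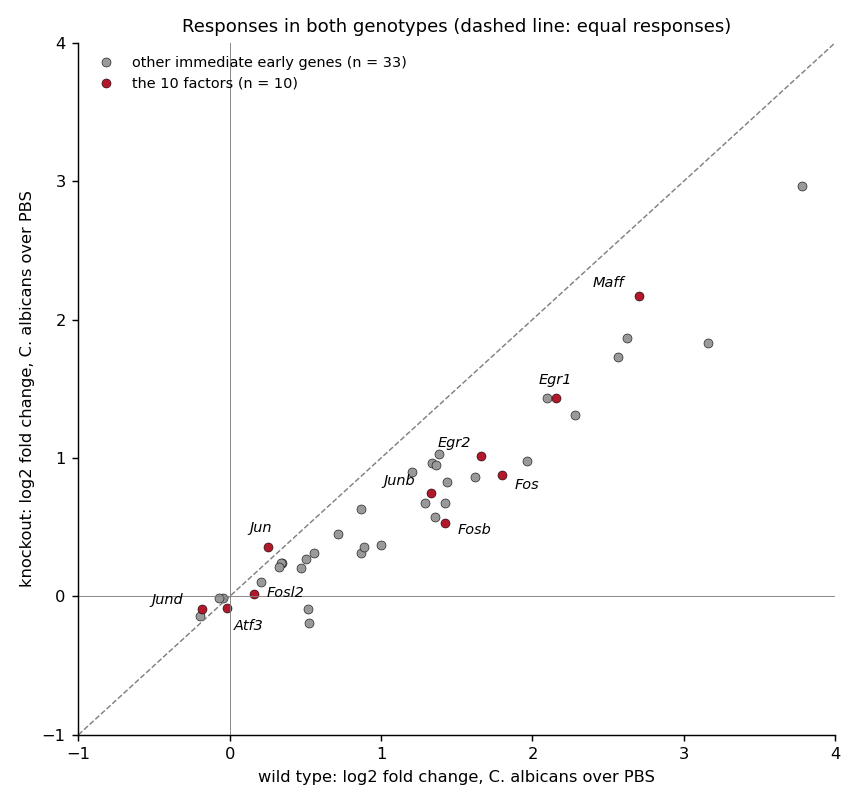
Log2 fold change of TPM + 1 with C. albicans over PBS in the knockout (vertical) against wild type (horizontal) for the 10 factors and 33 other immediate early genes, with a dashed line of equal responses. Maff lies at 2.17 and 2.70 and Fos at 0.88 and 1.80, below the line, while Jun at 0.36 and 0.25 lies above it.

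Zipper proteins related to AP-1 moved in both directions. Of 22 tested, 4 rose and 4 fell in the knockout (18.2% each, beside 3.94% and 3.14% of all genes). In wild type 11 rose (50%, beside 16.1%) and 4 fell (18.2%, beside 28.3%), and 2 interactions were positive and 2 negative (9.09% each, beside 7.52% and 6.33%). Nfe2l2, which encodes Nrf2, a large partner of small Maf proteins, rose by 0.50 in the knockout and 0.65 in wild type. It was lower in the knockout by -0.32 with C. albicans (limma adjusted p = 2.54e-05) and by -0.18 with PBS (adjusted p = 0.00286). Its interaction of -0.14 was not called (limma adjusted p = 0.0853). Between genotypes 4 of the 22 were higher (18.2%, beside 12.4% of all genes) and 13 lower (59.1%, beside 27.5%) in the knockout with C. albicans. With PBS 2 were higher (9.09%, beside 6.14%) and 11 lower (50%, beside 26.1%).

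The Egr relatives and Nab corepressors, which bind Egr proteins and restrain them, were listed together with Sp1, which is neither. The 4 tested genes were Egr3, Nab1, Nab2 and Sp1. Egr3 rose in both genotypes, to 2.47 ± 0.55 TPM in knockout and 4.13 ± 0.59 TPM in wild-type C. albicans libraries (SD, n = 3 each), and Nab1 rose with an interaction of -0.41 (limma adjusted p = 0.000805). Of the 4, 2 rose in each genotype (50%, beside 3.94% of all genes in the knockout and 16.1% in wild type) and 0 fell. With C. albicans 0 were higher (beside 12.4%) and 3 lower (75%, beside 27.5%) in the knockout. With PBS 0 were higher (beside 6.14%) and 2 lower (50%, beside 26.1%). Sp1 was among the lower ones under both treatments. The interaction was called in 1, Nab1 (25%, beside 6.33% of all genes with a negative one).

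The factors that act on immediate early promoters, and the kinases upstream of them, were counted in the same way. The list of serum response factor and its cofactors had 7 tested genes, among them Net1, which is not such a cofactor. Of the 7, 0 were called in the knockout response and 2 rose in wild type (28.6%, beside 16.1% of all genes). Under each treatment 4 were lower in the knockout (57.1%, beside 27.5% of all genes with C. albicans and 26.1% with PBS). The interaction was called in 0, and Net1 was not called in any of the 5 comparisons. Srf averaged 42.9 ± 0.38 TPM in knockout and 51.9 ± 2.83 TPM in wild-type C. albicans libraries (SD, n = 3 each), a difference of -0.27 (limma adjusted p = 0.00216). Of 32 tested MAP kinase pathway genes, 2 rose and 2 fell in the knockout (6.25% each, beside 3.94% and 3.14% of all genes). In wild type 5 rose (15.6%, beside 16.1%) and 14 fell (43.8%, beside 28.3%). In the knockout 2 of them were higher (6.25%, beside 12.4%) and 13 lower (40.6%, beside 27.5%) with C. albicans, and 0 higher and 13 lower (40.6%, beside 26.1%) with PBS. The 3 positive and 2 negative interactions (9.38% and 6.25%) lay near the shares of 7.52% and 6.33% over all genes. Map3k8, the kinase Tpl2 upstream of ERK, rose by 0.85 in the knockout and 1.28 in wild type, with an interaction of -0.43 (adjusted p = 0.0118).

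Of 19 tested genes for proteins that degrade or modify Fos, Jun and Egr or their messages, 2 rose and 2 fell in the knockout (10.5% each, beside 3.94% and 3.14% of all genes). In wild type 5 rose and 5 fell (26.3% each, beside 16.1% and 28.3%). Between genotypes 2 were higher (10.5%, beside 12.4%) and 10 lower (52.6%, beside 27.5%) in the knockout with C. albicans, and 1 was higher (5.26%, beside 6.14%) and 7 lower (36.8%, beside 26.1%) with PBS. Zfp36, which encodes tristetraprolin and targets messages with AU-rich elements, rose by 0.63 in the knockout and 0.87 in wild type, with an interaction of -0.23 (limma adjusted p = 0.00389). Its relative Zfp36l1 had the 1 positive interaction of the list, 0.65 (adjusted p = 0.00644).

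Of 24 tested genes known as AP-1 targets in macrophages or other cells, 11 rose and 1 fell in the knockout, and 18 rose and 3 fell in wild type. The shares that rose were 45.8% (3.94% of all genes) and 75% (16.1%). In the knockout 3 were higher (12.5%, beside 12.4% of all genes) and 17 lower (70.8%, beside 27.5%) with C. albicans. With PBS 7 were higher and 7 lower (29.2% each, beside 6.14% and 26.1%). The interaction was positive for 3 (12.5%, beside 7.52%) and negative for 15 (62.5%, beside 6.33%), with a median of -0.42. Tnf averaged 316 ± 13.3 TPM in knockout and 559 ± 30.0 TPM in wild-type C. albicans libraries (SD, n = 3 each), with an interaction of -0.89 (limma adjusted p = 2.09e-05). Ets2, itself a transcription factor, averaged 38.8 ± 1.15 and 67.7 ± 1.53 TPM in the same groups, with an interaction of -0.95 (adjusted p = 1.41e-06).

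The members had few exons, which is described here without a test. They had a median of 2.5 exons and at most 4, and 3 of the 10 (30%) had 1 exon, where 10379 tested protein-coding genes had a median of 9 exons and 1.84% had 1. All 10 held the pentamer ATTTA, the core of AU-rich elements, in the 3' UTR, with a median of 3 copies, beside 68.7% and a median of 1 among tested genes. Fosl2, with the longest 3' UTR of the members (4653 bases) and a transcript longer than the median of tested genes (6537 against 3053 bases), held 8 copies. Per kilobase of 3' UTR the members held 2.18 copies and tested genes 1.82.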

How the data were processed

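Groups follow the genotype and treatment labels. The mm10 build and the tools STAR 2.7.5a, cutadapt 2.6, CASAVA 1.8 and DESeq2 1.34.0 are named per the submitters' processing notes. How reads were counted per gene, and with which annotation or strand setting, is not given in the sources used. The authors deposited TPM per gene for each library, and, per the file headers, for 1 comparison a p-value (raw and adjusted), a test score, a log2 fold change and its error, beside a mean normalised signal. From the deposited TPM and mean signal the whole reads of each gene could be recovered (100% of 124670 nonzero values under 1000 reads lay within 0.05 of a whole number), and served for depth and replicate checks. No interval is given for single values, and read numbers cover counting error only.

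The 10 members, the related lists, the tests and the alternatives were chosen with earlier results of these data known. limma 3.58.1 in R 4.3.3 was fitted to log2(TPM + 1), with the variance trend on, 1 mean per group and no replicate block, to the 11283 genes that reached 1 TPM in 3 or more libraries (8 residual degrees of freedom). P-values are two-sided. The fit was tested on simulated data with 200 changed genes. Named genes are the members, Piezo1, the 2 nearest genes of each member among those with a group mean of at least 5 TPM, and from each list up to 4 genes by interaction p and up to 2 by wild-type response p, of which examples were picked after their values were seen. Same-numbered libraries did not deviate together (18 pairs, correlations of -0.087 to 0.087, 0 over 0.1), so numbers were not taken as pairs. Exons and UTRs are from GENCODE vM21 on GRCm38, gene loci and promoter sequences from RefSeq on GRCm38.p6. Alternatives varied the pseudocount, the filter, the scaling, the variance trend, the libraries in the fit, the block and each single library, and removal of a trend with gene length was added after seeing the data. A planned comparison of the proteins was not run, and the values of 2 genes named by the rule are not reported here.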

Additional observations from a re-analysis of the deposited data

Results flagged for a closer look

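Each result here was singled out because the response to C. albicans differed between the genotypes by a test of the difference itself, the interaction in limma with a Benjamini-Hochberg adjusted p under 0.05 over all tested genes. Values are log2 differences, knockout response less wild-type response, with 3 libraries per group. Among the members it was -0.92 for Fos, -0.58 for Junb, -0.65 for Egr2 and -0.53 for Maff. The knockout response was positive and smaller than that of wild type in all 4. Wild-type C. albicans replicate 1 bears on these values, and without it they were -0.99, -0.53, -0.48 and -0.42.

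Among other immediate early genes the difference was -0.78 for Plk2, -0.76 for Dusp1, -0.97 for Dusp4, -0.99 for Ier3 and -0.75 for Nfkbia. Among AP-1 targets it was -0.95 for Ets2, -0.89 for Tnf, -1.44 for Cxcl2 and -0.73 for Il1rn. The genes shown are those of smallest p in each list, not all that were called. Among AP-1 targets 15 interactions were negative and 3 positive in all, and among other immediate early genes 20 were negative and 0 positive. Among zipper proteins it was -0.20 for Atf4 and -0.26 for Cebpb, and with the opposite sign 0.43 for Maf. It was -0.41 for Nab1, a corepressor of Egr proteins. In the MAP kinase list it was -0.35 for Mapkapk2 and -0.43 for Map3k8, and 0.51 for Mknk2, 0.44 for Map3k1 and 0.35 for Mknk1. Of the genes that act on messages it was -0.23 for Zfp36 and 0.65 for Zfp36l1.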

How the results depend on the processing

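Of 1085 values of the members under 22 alternatives, 983 kept direction and side of the threshold, 70 were no longer called, 16 became called and 16 changed sign. Other named genes were followed only in comparisons where they were called, and of these 3662 values 3505 kept direction and call, 156 were no longer called and 1 changed sign. The cause of these changes was not tested. With no filter on low values 3 members were called between knockout and wild type with PBS, in place of 6. Of the 17155 genes then tested, 607 were higher and 2772 lower in that comparison. Among all genes, 1350 were called for the knockout response when only the libraries compared were fitted, in place of 799, and 1682 between genotypes with PBS once the length trend was removed, in place of 3641. The Egr1 difference with PBS changed sign to 0.003 with a pseudocount of 5 TPM, 0.060 with median-ratio factors, 0.041 with upper-quartile factors and 0.137 with the length trend removed, and that of Maff to 0.020 with median-ratio factors. The Atf3 response in wild type became 0.062 with median-ratio factors and 0.090 with the length trend removed, and the Mrtfb difference with PBS 0.045 with that trend removed.

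Leaving out each library in turn gave 3 to 8 members called for the interaction, 6 to 8 between genotypes with C. albicans, 3 to 7 with PBS, 6 to 8 for the knockout response and 7 to 9 for the wild-type response. Over all genes the interaction was called in 1036 to 2531, the knockout response in 420 to 1487 and the wild-type response in 4052 to 5421. Between genotypes 3717 to 4699 genes were called with C. albicans and 2760 to 4225 with PBS. Each of these counts over all genes was highest when wild-type C. albicans replicate 1 was left out. In these runs the Fosl2 response in the knockout ranged over -0.009 to 0.041, the Fosl2 difference with C. albicans over -0.029 to 0.046, the Atf3 response in wild type over -0.072 to 0.077 and the Egr1 difference with PBS over -0.183 to 0.238. With the replicate number as a block, 6 members were called for the knockout response, 9 for the wild-type response, 8 between genotypes with C. albicans, 5 with PBS and 4 for the interaction, and over all genes 716, 4919, 4402, 3547 and 1418; Egr2 with PBS was the member no longer called (limma adjusted p = 0.0551).

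Depth limits Fosb (41 to 345 reads per library) and Egr1 (51 to 571 reads) most. With 3 libraries per group and 1 library that stood apart, calls near the threshold, such as those of Fosl2, Junb and Egr2 between genotypes with PBS, changed when single libraries were left out.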
